A study of Mus musculus with 10 samples.

Results

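The HIF subunits and oxygen-sensing hydroxylases are 10 genes that were taken by gene symbol, by their place in the pathway and with no threshold on their values, from the 24302 genes of a whole-transcriptome analysis of mouse embryos. They comprise the alpha subunits *Hif1a*, *Epas1* and *Hif3a*, the beta subunits *Arnt* and *Arnt2*, the ubiquitin ligase component *Vhl*, the prolyl hydroxylases *Egln1*, *Egln2* and *Egln3*, and the asparaginyl hydroxylase *Hif1an*. RNA came from homogenized C57BL/6 embryos at embryonic day 11.5, of which 3 were wildtype, 3 heterozygous and 4 homozygous for a deletion of *Wwc2*, the last called KO here. *Wwc2* encodes a scaffold protein that acts upstream in the Hippo pathway. The deletion was made with floxed *Wwc2* and a Cre recombinase under the oocyte promoter of *Zp3*, so that it is present in every tissue of the embryo and removes the maternal transcript as well. The paper describes its KO embryos at embryonic day 11.5 as retarded in growth and less developed than controls, with blood-filled vessels almost absent. The part of this state in the differences below was not tested. Litter and sex of the embryos are not given in the sources used here, and p-values measure only the spread between these embryos.

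Oxygen sensing by this system works at the protein level. In the presence of oxygen, the prolyl hydroxylases (PHD enzymes) modify HIF alpha subunits, which VHL then recognizes and marks for degradation by the proteasome, and the asparaginyl hydroxylase FIH, encoded by *Hif1an*, blocks the binding of coactivators. When oxygen is low, the alpha subunits accumulate, pair with an ARNT protein and activate genes that carry hypoxia response elements. *Egln1* and *Egln3* are themselves known HIF target genes, *Epas1* is known for its expression in endothelial cells, and *Arnt2* for its expression in the nervous system. The mRNA levels below therefore do not measure how much HIF protein was present.

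The deposited data give for each gene a mean over all 10 embryos, and a log2 fold change with standard error (SE) and p-value for KO versus wildtype and for heterozygous versus wildtype. Values of single embryos were not analysed here. A mean normalized count per genotype was derived from these columns, and each SD given below is the one implied by the dispersion behind the deposited SE, which is shared by the 3 genotypes. Each SD is therefore not the spread among the embryos of a single genotype. The derived counts summed to 2.383e+07 among wildtype, 2.36748e+07 among heterozygous and 2.82736e+07 among KO embryos. The KO total was thus 0.25 higher than the wildtype total on the log2 scale, whereas all genes tested had a median of 0.02. For *Wwc2* the KO versus wildtype value was 0.30 on the log2 scale (SE 0.17, adjusted p = 0.176), so its mRNA was not lower in KO embryos. This value is for the gene as a whole, gives no level of the deleted part and so does not check the genotypes. The paper genotyped embryos by PCR and reports from a Western blot that KO embryos lacked WWC2 protein.

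Compared with wildtype, KO embryos had 3 of the 10 genes higher and 1 lower (adjusted p below 0.05). *Egln3*, *Epas1* and *Egln1* rose, and *Arnt2* fell. Over all genes tested, 25.8% were called, 15.6% as higher and 10.2% as lower, and the count among these 10 genes is given as a description beside that background. The median log2 fold change was 0.15 over the 10 genes. The other 6 genes, *Hif1a*, *Hif3a*, *Arnt*, *Vhl*, *Egln2* and *Hif1an*, did not pass the test, and their log2 fold changes lay between -0.21 and 0.52. Without adjustment, 5 of the 10 genes had a p below 0.05, the additional one being *Arnt*. Scaling by the total, as used here, subtracts the log2 difference between the KO and wildtype totals, 0.25, from every log2 fold change. It keeps the deposited SE, because single embryos could not be rescaled. With it, 7 genes passed, 3 of them higher and 4 lower. Read against a t distribution with 7 degrees of freedom, 0 of the 10 genes and 0 genes in all passed. In that reading, 4 of the 10 had an unadjusted p below 0.05.

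**Figure D1:**
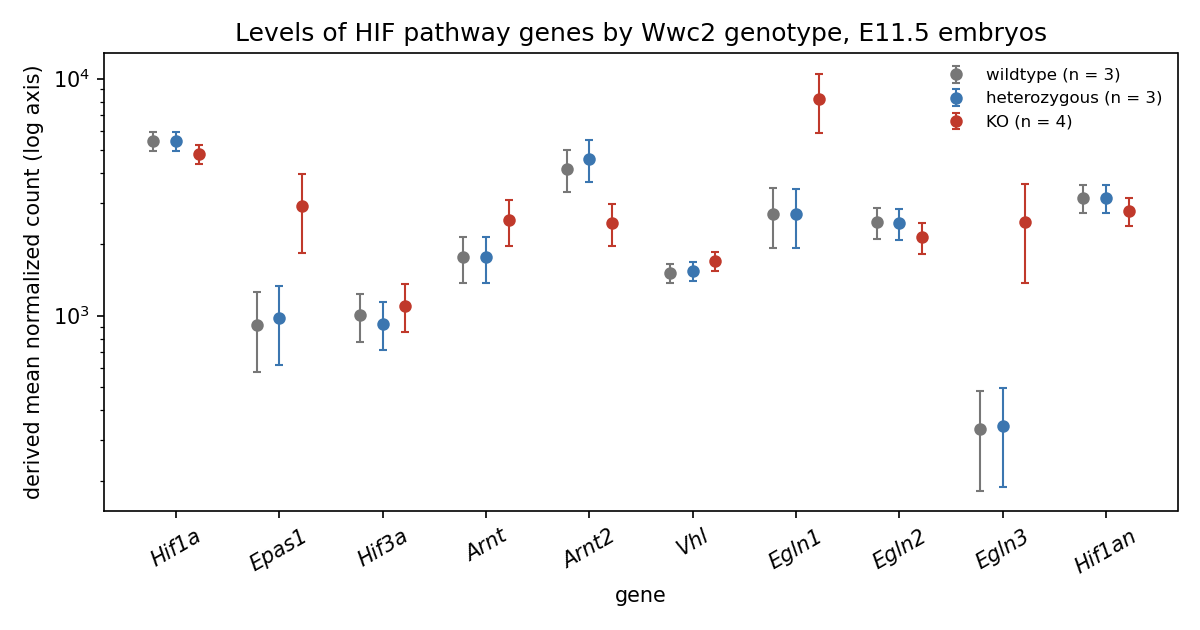
Derived mean normalized count (log axis) of the 10 genes in wildtype (n = 3), heterozygous (n = 3) and KO (n = 4) embryos, where points are means and bars the SD between embryos implied by the dispersion of the deposited fit. Wildtype and heterozygous points lie beside each other for every gene, and the KO points of *Egln1*, *Egln3* and *Epas1* lie above them while that of *Arnt2* lies below.

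Of the prolyl hydroxylases, *Egln3* and *Egln1* rose and *Egln2* did not pass the test. *Egln3* encodes PHD3 and had the smallest p of the 10 genes. Its mean normalized count was 333 ± 150 among wildtype (SD, n = 3), 343 ± 154 among heterozygous (SD, n = 3) and 2473 ± 1105 among KO embryos (SD, n = 4). The wildtype and heterozygous means lay within their SD of each other and the KO mean lay far above both. The rise in KO versus wildtype embryos was 7.44-fold (95% confidence interval 3.80 to 14.6), a log2 fold change of 2.89 (SE 0.49, adjusted p = 1.27e-06).

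*Egln1* encodes PHD2, known as the main enzyme that sets HIF1A levels in the presence of oxygen. The mean normalized count was 2683 ± 756 among wildtype (SD, n = 3), 2681 ± 755 among heterozygous (SD, n = 3) and 8172 ± 2297 among KO embryos (SD, n = 4). Here too, only the KO mean stood apart. The rise was 3.05-fold, a log2 fold change of 1.61 (SE 0.31, 95% confidence interval 0.999 to 2.21, adjusted p = 2.69e-05).

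*Egln2* encodes PHD1, which hydroxylates the same subunits. Its level was 2477 ± 367 among wildtype, 2457 ± 364 among heterozygous and 2138 ± 317 among KO embryos. The log2 fold change in KO versus wildtype embryos was -0.21 (SE 0.16, adjusted p = 0.320), with a 95% confidence interval from -0.53 to 0.11 that does not reach the changes of *Egln1* and *Egln3*. Scaled by the total, the value was -0.46 with an adjusted p of 0.0174.

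The region before the start of *Egln3* is shown because hypoxia response elements are built around the letters ACGTG or GCGTG, and that of *Hif1a* is shown beside it as an example from a gene that did not pass the test. Both sequences are the 250 bases before the start that RefSeq gives, 5′ to 3′ on the strand of the gene, on GRCm38.p6. For *Hif1a* this start lies inside the gene as GENCODE M21 draws it, whose own start is further upstream, so the window is not the region before the GENCODE start. Neither window overlaps an exon of GENCODE M21. Capitals mark ACGTG, on either strand. The *Egln3* window is chr12:54203875-54204124 on the minus strand, the *Hif1a* window chr12:73907617-73907866 on the plus strand.
*Egln3*: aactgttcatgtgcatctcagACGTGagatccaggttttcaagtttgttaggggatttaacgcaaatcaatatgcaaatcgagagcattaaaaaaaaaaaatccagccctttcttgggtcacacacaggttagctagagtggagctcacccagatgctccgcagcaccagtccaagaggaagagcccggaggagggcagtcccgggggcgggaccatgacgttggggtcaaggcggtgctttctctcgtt
*Hif1a*: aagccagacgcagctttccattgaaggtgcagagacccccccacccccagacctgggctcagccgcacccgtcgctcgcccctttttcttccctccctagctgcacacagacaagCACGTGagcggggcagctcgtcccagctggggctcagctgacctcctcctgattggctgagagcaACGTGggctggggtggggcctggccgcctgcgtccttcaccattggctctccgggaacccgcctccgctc

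The single match of *Egln3* begins 229 bases before the start. *Hif1a* has 3 matches, at 70, 134 and 135 bases before the start, the last pair being the strands of CACGTG read in both directions. Of 9 of the 10 genes with a window, 4 hold ACGTG and 4 hold GCGTG on either strand, and 6 hold at least one of them, counting every window of a gene. Among all 32851 windows of this length, 16.6% hold ACGTG, 28.2% hold GCGTG and 38.6% hold either. These shares are per window and the counts of the 10 genes per gene, so they cannot be compared directly. *Egln1*, which rose, holds both motifs once, and *Egln2*, which did not pass, has 5 matches over its windows. In the *Egln1* window, 70 bases are exon in GENCODE M21. Its ACGTG, which begins 68 bases before the RefSeq start, lies within them. The windows of *Arnt2* (138), *Vhl* (35), *Hif1an* (4) and *Arnt* (2) also hold exon bases. *Epas1* has no entry. The matches are a description of letters in this window and were not tested for binding.

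*Hif1an* and *Vhl*, the other components that limit HIF in the presence of oxygen, did not pass the test. *Hif1an* had a mean normalized count of 3142 ± 424 among wildtype, 3125 ± 421 among heterozygous and 2755 ± 372 among KO embryos (SD, n = 3, 3 and 4). The KO versus wildtype log2 fold change was -0.19 (SE 0.15, adjusted p = 0.331), and -0.44 with an adjusted p of 0.0130 after scaling by the total. *Vhl* had 1508 ± 139 among wildtype, 1537 ± 142 among heterozygous and 1698 ± 156 among KO embryos. Its log2 fold change was 0.17 (SE 0.10, adjusted p = 0.189), which turned to -0.08 after scaling by the total. The 95% confidence intervals were -0.48 to 0.10 for *Hif1an* and -0.03 to 0.37 for *Vhl*. Of 5 partners of VHL in the ligase, 0 were called (DESeq2, as deposited), where 25.8% of all genes tested were. With so few genes this count is not a result about the list. The median log2 fold change of the 5 was -0.01. *Cul2*, the cullin of the complex, had a log2 fold change of 0.07 (SE 0.12), and *Rbx1*, its RING subunit, -0.01 (SE 0.11).

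Of the alpha subunits, *Epas1* (HIF2A) rose while *Hif1a* and *Hif3a* did not pass the test. *Epas1* had a mean normalized count of 917 ± 336 among wildtype (SD, n = 3), 974 ± 357 among heterozygous (SD, n = 3) and 2892 ± 1058 among KO embryos (SD, n = 4). The KO mean was 3.15-fold higher than the wildtype mean (95% confidence interval 1.82 to 5.46; log2 fold change 1.66, SE 0.40, adjusted p = 0.00126). The embryo-to-embryo variation of *Epas1* was among the widest of the 10 genes, as its implied coefficient of variation was 36.5%.

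*Hif1a*, the subunit of the classical hypoxia response, had the narrowest spread but one, with a coefficient of variation of 8.98%. Its mean normalized count was 5468 ± 497 among wildtype, 5445 ± 495 among heterozygous and 4796 ± 436 among KO embryos. The log2 fold change in KO versus wildtype embryos was -0.19 (SE 0.10, adjusted p = 0.138), with an interval from -0.39 to 0.01. Scaled by the total, it was -0.44 with an adjusted p of 0.000277, so whether *Hif1a* is called depends on the scaling. *Hif3a*, whose product includes forms that counteract HIF, had 1003 ± 228 among wildtype, 927 ± 210 among heterozygous and 1104 ± 250 among KO embryos. Its log2 fold change was 0.14 (SE 0.25, adjusted p = 0.702), and -0.11 after scaling by the total.

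Of the beta subunits, *Arnt2* fell. Its mean normalized count was 4154 ± 826 among wildtype (SD, n = 3), 4587 ± 911 among heterozygous (SD, n = 3) and 2464 ± 491 among KO embryos (SD, n = 4). The KO mean was lower than both others, at 0.593 of the wildtype mean (log2 fold change -0.75, SE 0.22, adjusted p = 0.00712). *Arnt*, the widely expressed beta subunit, had 1767 ± 389 among wildtype, 1765 ± 388 among heterozygous and 2527 ± 555 among KO embryos. The log2 fold change of *Arnt* was 0.52 (SE 0.24, adjusted p = 0.0937), with an interval from 0.04 to 0.99, and did not pass the test. Among 11 other bHLH-PAS factors, to which the HIF subunits belong, 0 were higher and 1 was lower (median -0.27 on the log2 scale), near the 10.2% of all genes tested that were lower. The lower gene was *Npas3*, a brain factor (-0.61, SE 0.19, adjusted p = 0.0112).

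Between heterozygous and wildtype embryos, 0 of 10 genes were called (DESeq2, as deposited), against 2 of 20653 genes, or 0.00968%, in all. At an unadjusted p below 0.05 there were 0 of the 10 genes and 75 genes in all, and the test statistics had an SD of 0.502 over all genes, against 1.95 in KO versus wildtype embryos. The SE, which rests on a dispersion shared with the KO embryos, was thus wide for the differences between heterozygous and wildtype embryos. The 0 calls therefore do not show that the levels were equal. The log2 fold changes of the 10 genes lay between -0.11 for *Hif3a* and 0.14 for *Arnt2*, with adjusted p-values of 0.999997. The 95% confidence intervals were as wide as -0.99 to 1.08 for *Egln3* and as narrow as -0.22 to 0.20 for *Hif1a*. The KO versus wildtype values of *Egln3*, *Egln1*, *Epas1*, *Arnt2* and, narrowly, *Arnt* lay outside the intervals of the same genes. This leaves out the error of the KO values, and both comparisons share the wildtype embryos. In the direct comparison of KO with heterozygous embryos, given next, *Arnt* did not pass.

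The comparison of KO with heterozygous embryos was derived from the same tables, and shares the KO embryos with the first comparison. It called 4 of the 10 genes, with 3 higher and 1 lower, against 21.4% of all genes, 13.2% as higher and 8.22% as lower. *Egln3* was 2.85 higher on the log2 scale (SE 0.49, adjusted p = 2.23e-06), *Egln1* 1.61 higher (SE 0.31, adjusted p = 2.86e-05) and *Epas1* 1.57 higher (SE 0.40, adjusted p = 0.00256). *Arnt2* was lower, with a log2 fold change of -0.90 (SE 0.22, adjusted p = 0.00147). *Arnt* (0.52, adjusted p = 0.105) and *Hif1a* (-0.18, adjusted p = 0.174) did not pass. These p-values use a normal distribution and Benjamini-Hochberg adjustment over all 20653 genes.

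**Figure D2:**
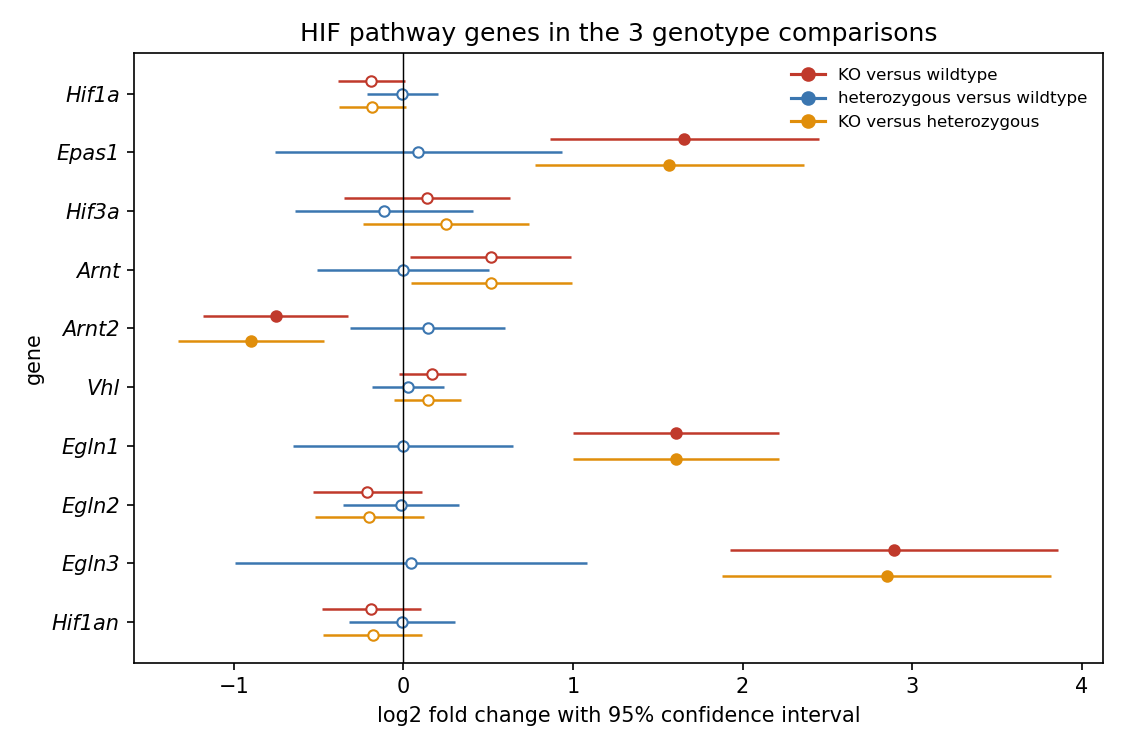
Log2 fold change with 95% confidence interval of the 10 genes in KO versus wildtype, heterozygous versus wildtype and KO versus heterozygous embryos, where filled points passed an adjusted p of 0.05. *Egln3*, *Epas1* and *Egln1* are filled to the right and *Arnt2* to the left of 0 in both comparisons with KO embryos, and every heterozygous versus wildtype interval includes 0.

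Divided by exon length, the levels can be set beside each other approximately. The length is the union of all annotated exons of a gene, which can be longer than the transcripts expressed. The order of the genes, the family shares and the ratios between families depend on it. In wildtype embryos, *Hif1a* was the highest with 927 normalized counts per kilobase of exon, followed by *Egln2* with 885 and *Egln1* with 747, and *Egln3* was the lowest with 125. The only neighbours that differed by more than their larger SD were *Hif1an* (476) and *Arnt* (221), so *Arnt*, *Epas1*, *Hif3a* and *Egln3* formed the lower group in both wildtype and heterozygous embryos. In KO embryos *Egln1* was highest with 2274, beyond its SD from *Egln3* with 929, which was followed by *Hif1a* with 813 and *Egln2* with 764. *Hif3a* was lowest with 164.

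The make-up of the families differed accordingly. *Egln3* contributed 7.11% of the prolyl hydroxylase transcripts per kilobase among wildtype, 7.36% among heterozygous and 23.4% among KO embryos, and *Egln2* 50.4%, 50.1% and 19.3%. *Epas1* contributed 13.2% of the alpha subunit transcripts among wildtype, 14.1% among heterozygous and 34.6% among KO embryos, and *Hif1a* 74.7%, 74.7% and 54.4%. *Arnt2* contributed 71.0% of the beta subunit transcripts in wildtype and 50.4% in KO embryos. The summed prolyl hydroxylase level was 1.42 times that of the alpha subunits in wildtype and heterozygous embryos and 2.65 times in KO embryos. These shares are ratios of derived means and carry no test of their own.

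**Figure D3:**
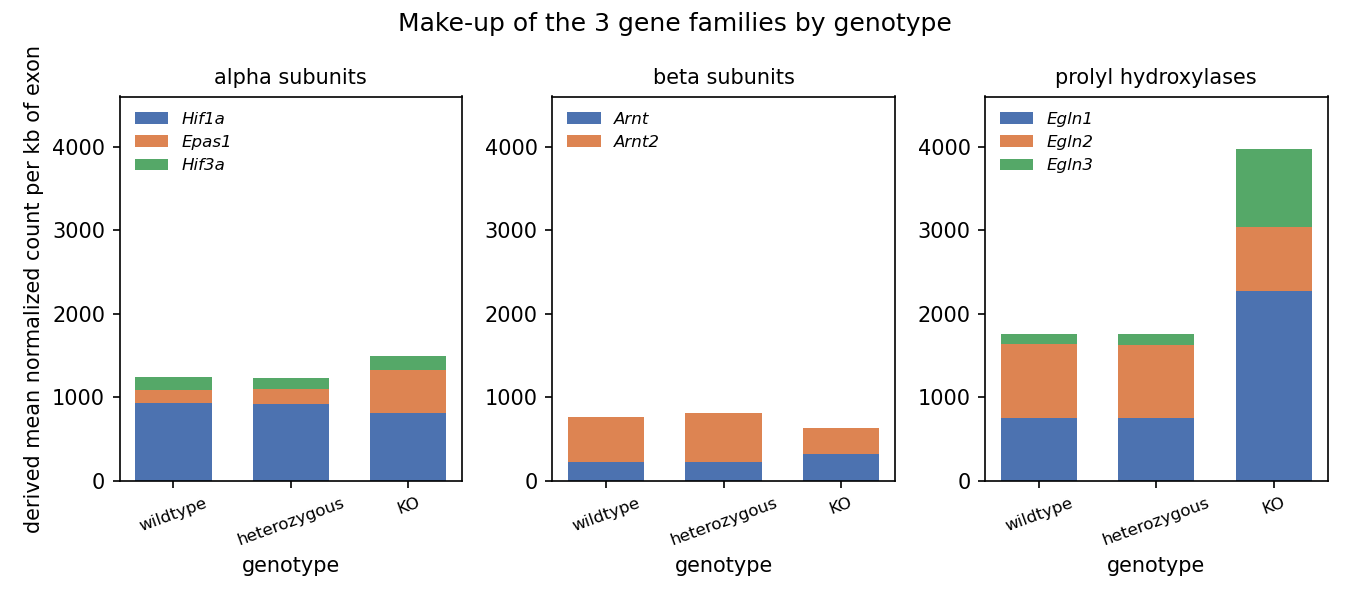
Derived mean normalized count per kilobase of exon of the alpha subunits, beta subunits and prolyl hydroxylases, stacked by gene, for each genotype (the axis starts at 0). The KO bar of the prolyl hydroxylases is the tallest, with 57.3% from *Egln1*, and the share of *Epas1* in the alpha subunits is larger in KO than in the other embryos.

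All 10 genes are protein-coding in GENCODE M21 (GRCm38). *Hif1a* (ENSMUSG00000021109) spans chromosome 12 from 73901375 to 73947530 on the plus strand, *Epas1* (ENSMUSG00000024140) spans chromosome 17 from 86753700 to 86833410 on the plus strand and *Hif3a* (ENSMUSG00000004328) spans chromosome 7 from 17031507 to 17062427 on the minus strand. *Arnt* (ENSMUSG00000015522) spans chromosome 3 from 95434388 to 95497240 on the plus strand, *Arnt2* (ENSMUSG00000015709) spans chromosome 7 from 84246278 to 84410176 on the minus strand and *Vhl* (ENSMUSG00000033933) spans chromosome 6 from 113623959 to 113631633 on the plus strand. *Egln1* (ENSMUSG00000031987) spans chromosome 8 from 124908587 to 124949324 on the minus strand and *Egln2* (ENSMUSG00000058709) spans chromosome 7 from 27158658 to 27166802 on the minus strand. *Egln3* (ENSMUSG00000035105) spans chromosome 12 from 54178981 to 54203860 on the minus strand and *Hif1an* (ENSMUSG00000036450) spans chromosome 19 from 44562850 to 44576274 on the plus strand. Where exons are shared, the assignment of reads depends on the counting, and on opposite strands also on its strand setting, which is not given in the sources used here. *Hif1a* shares 330 exon bases with the antisense gene *Gm15283* and 148 with *Gm49321* on the same strand, *Arnt2* shares 214 with the antisense gene *Gm30873*, and *Egln2* shares 11 with *Cyp2t4* on the opposite strand. The other 7 genes share none.

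The genes that act with these components showed the following. Their lists were chosen with earlier results of these data known, so the counts are a description. Of 26 canonical HIF target genes, KO embryos had 24 higher and 0 lower than wildtype embryos, where 15.6% and 10.2% of all genes tested were. The median was 2.59 on the log2 scale against 0.02 over all genes tested. Against heterozygous embryos the counts were 24 and 0 as well, where 13.2% and 8.22% of all genes were higher and lower. Examples are *Bnip3*, a mitophagy receptor (3.22, SE 0.39, adjusted p = 9.33e-13), *Pdk1*, which limits pyruvate oxidation (2.11, SE 0.27), and *Ldha*, lactate dehydrogenase (2.22, SE 0.29). *Mxi1* (0.70) and *Pfkfb4* (-0.11) did not pass. Of 17 coactivators and stability regulators, 6 were higher and 1 lower (median 0.26), where 15.6% and 10.2% of all genes tested were. *Cited2*, which competes with HIF for coactivators, rose by 1.41 on the log2 scale (SE 0.31, adjusted p = 0.000300), *Hsp90ab1*, a chaperone, by 1.12 (SE 0.32) and *Siah2*, a ligase for PHD enzymes, by 0.81 (SE 0.25). The lower gene was *Usp20*, a deubiquitinase, with a log2 fold change of -0.29 (adjusted p = 0.0332). In heterozygous embryos 0 genes of these lists were called.

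**Figure D4:**
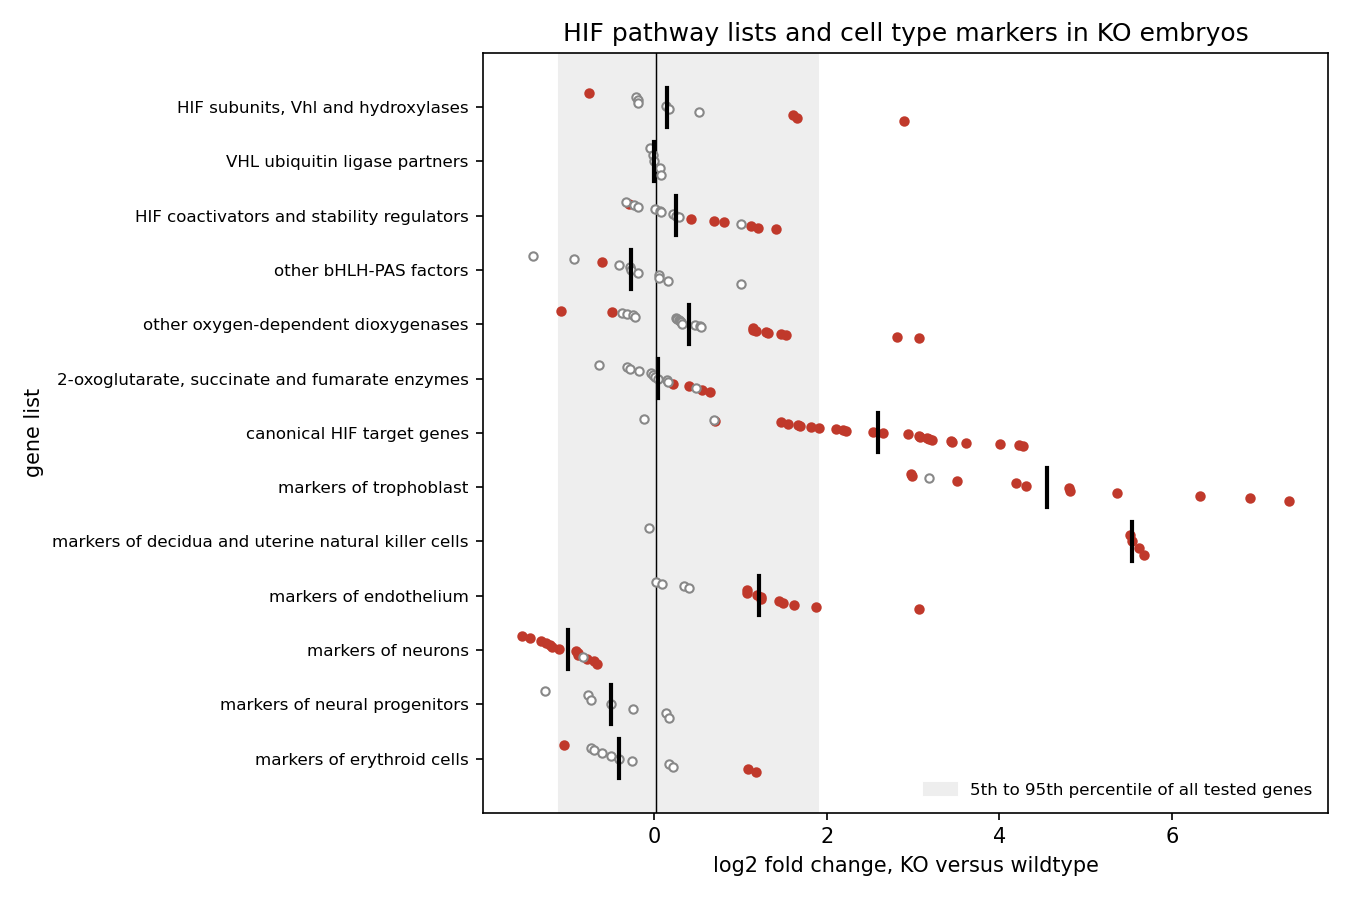
Log2 fold change in KO versus wildtype embryos of the 10 genes, of pathway lists and of cell type markers, one point per gene, where filled points passed an adjusted p of 0.05, vertical bars are list medians and the shaded band is the 5th to 95th percentile of all genes tested. The canonical HIF target genes lie almost wholly to the right of 0, the neuron markers to the left, and the trophoblast markers far to the right.

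Markers of cell types moved with these genes in KO embryos. In bulk RNA, fewer cells of a type and less RNA per cell cannot be told apart. Over all genes tested in KO versus wildtype embryos, 15.6% were higher and 10.2% lower, as background for the counts of each marker list. Endothelial markers were higher for 10 of 14 genes and lower for 0. Their summed level was 14784 among wildtype, 15370 among heterozygous and 37210 among KO embryos. *Epas1* was 6.20%, 6.34% and 7.77% of that sum. *Cdh5*, the cadherin of endothelial junctions, rose by 1.49 on the log2 scale (SE 0.38). The part of the endothelial markers in the rise of *Epas1* was not tested. Neuron markers were lower for 13 of 14 genes and higher for 0, with sums of 61113, 67261 and 31133, and *Arnt2* was 6.80%, 6.82% and 7.91% of them. *Dcx*, a microtubule protein of migrating neurons, had a log2 fold change of -1.53 (SE 0.39, adjusted p = 0.00181), and *Tubb3*, the neuronal tubulin, was the gene that did not pass (-0.82, adjusted p = 0.0777). Neural progenitor markers had 0 of 7 genes called by the same test, where 25.8% of all genes tested were, but their median was -0.50 on the log2 scale. Against heterozygous embryos their median was -0.71, and 1 of the 7 was lower. That gene was *Fabp7* (-1.43, adjusted p = 0.0346 in the derived test). The part of the neuron markers in the fall of *Arnt2* was not tested.

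Trophoblast markers were higher for 11 of 12 genes and lower for 0, with *Synb* without counts, where 15.6% and 10.2% of all genes tested were. Their sums were 1281 among wildtype, 2648 among heterozygous and 44604 among KO embryos. Decidual and uterine natural killer cell markers were higher for 4 of 5 genes, with sums of 12318, 870 and 19110. *Prl8a2*, which did not pass, made up 12165, 535 and 11709 of them, so the sums do not follow the 4 called genes. The decidua is maternal tissue and does not carry the genotype of the embryo. *Tpbpa*, of the spongiotrophoblast, rose by 6.33 on the log2 scale (SE 1.25, adjusted p = 4.37e-05). *Egln3* was 26.0% of the trophoblast sum among wildtype, 13.0% among heterozygous and 5.55% among KO embryos. Erythroid markers were higher for 2 and lower for 1 of 11 genes, with *Hba-a1* without counts. This share is near the 25.8% of all genes tested that were called, and so is not a result about this list. The part of these tissues in the rises of *Egln3* and *Egln1* was not tested.

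The genes whose pattern was most like that of *Egln3* were *Pkp2*, *Ero1l*, *Lama5*, *Tmem150a* and *Prss8*. Likeness was the distance between the pairs of log2 fold changes (KO and heterozygous versus wildtype) over 12608 genes with a mean of at least 100, and it ranged from 0.0207 for *Pkp2* to 0.0865 for *Prss8*. These distances are smaller than the SE of *Egln3* itself, 0.49 against wildtype for KO and 0.53 for heterozygous embryos. The order of these genes is therefore within that error. *Ero1l*, an oxidase of the endoplasmic reticulum, is also among the canonical HIF targets listed here, with a KO versus wildtype log2 fold change of 2.94 (SE 0.50).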

How the data were processed

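RNA of 10 embryos was sequenced from poly(A) libraries with a read length of 80 bases. According to the paper's methods and the submitters' processing notes, reads were trimmed with Trimmomatic 0.33, aligned to mm10 with HISAT2, counted with HTSeq and compared with DESeq2. The deposited tables hold only the authors' own comparisons: a mean normalized count signal over all embryos, log2 fold change, its SE, statistic, p-value and adjusted p-value. The values of these comparisons were used because the analysis had no column per embryo. Derived from them were genotype means, a dispersion per gene from each SE (members' ratio of both estimates 1.00 to 1.01), the SD, KO versus heterozygous tests, and levels per kilobase of exon (GENCODE M21). The strand setting of the counting is not given in the sources used here. The sequencing depth of the libraries is unknown, since the deposited values are normalized. The scripts used Python 3.11.15, pandas 2.3.3 and scipy 1.17.1 and were tested on simulated data.

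Genes were called at an adjusted p below 0.05. The named genes were the 10 members, the 4 genes of smallest p of each pathway list (not all are printed), 2 most abundant markers per marker list, and the 5 genes most like *Egln3*. *Mxi1*, *Pfkfb4*, *P4ha3*, *Tet3*, *Usp20*, *Synb* and *Hba-a1* were named after their values were seen, to complete counts. Alternatives were other scalings, filters on low counts, a t distribution and another SE. The members and lists were chosen with earlier results of these data known. *Ahsp* was not in the table. *Kdm3a* and *P4ha1* are in 2 lists.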

Additional observations from a re-analysis of the deposited data

How the results depend on the processing

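Calls of the 10 genes were recomputed under other scalings, other filters, a t distribution and another SE. Each scaling subtracted a constant from all log2 fold changes of a comparison and kept the SE. Scaling by the total gave 7 called genes in KO embryos against wildtype and 7 against heterozygous embryos, with 4 lower in each, and reversed *Hif3a* (-0.11) and *Vhl* (-0.0756) against wildtype, and *Hif3a* (-0.0038) and *Vhl* (-0.11) against heterozygous embryos. A t distribution with 7 degrees of freedom gave 0 called genes in both, 0 higher and 0 lower, where *Egln3*, *Egln1*, *Epas1* and *Arnt2* had adjusted p-values of 0.131 against wildtype and 0.143 against heterozygous embryos. That test called 0 genes in all, with 5071 and 5272 at an unadjusted p below 0.05. Centring on the median added *Hif1a* in KO versus heterozygous embryos (-0.26, adjusted p = 0.0414), so that 2 were lower. In heterozygous versus wildtype embryos, values close to 0 changed sign: under median centring *Arnt* 0.00826, *Egln1* 0.00855, *Hif1a* 0.00351 and *Hif1an* 0.00163, and under total scaling 0.00808, 0.00836, 0.00333 and 0.00145. Calls did not change when low counts were left unfiltered or when a mean of at least 10 was required. For KO versus heterozygous embryos, a setting with equal variance in all genotypes changed no call either. It cannot show whether unequal variance matters, because the main SE already rests on a dispersion shared by the genotypes. The causes were not tested. No paired analysis was possible because no column gives values per embryo, and for the same reason leaving out each embryo in turn was not run.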

Other observations

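Other oxygen-dependent dioxygenases, most of which use 2-oxoglutarate as the HIF hydroxylases do, were higher in KO than in wildtype embryos for 9 of 24 genes and lower for 2 (median 0.40 on the log2 scale), where 15.6% and 10.2% of all genes tested were. The collagen prolyl hydroxylases *P4ha1* (3.07, SE 0.51, adjusted p = 4.43e-07) and *P4ha2* (2.82, SE 0.50, adjusted p = 3.31e-06) rose most clearly by p, followed by the lysyl hydroxylases *Plod1* (1.18, SE 0.26) and *Plod2* (1.30, SE 0.31). The genes that fell were *P4ha3* (-1.08), which did not pass against heterozygous embryos (adjusted p = 0.0719), and *Tet3* (-0.49). In heterozygous embryos 0 of 24 were called by the same test.

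Enzymes that make or use 2-oxoglutarate, succinate and fumarate, the cosubstrate and inhibitors of the hydroxylases, were higher in KO than in wildtype embryos for 4 of 15 genes and lower for 0, with a median of 0.04. The called share is near the 25.8% of all genes tested and so is not a result about this list. The 4 genes were *Idh2* (0.56, SE 0.13, adjusted p = 0.000588), *Sdhd* (0.40, SE 0.12), *Idh3b* (0.65, SE 0.23) and *Fh1* (0.22, SE 0.08), of which *Fh1* did not pass against heterozygous embryos (adjusted p = 0.0519).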
